A study of Mus musculus with 8 samples.

Results

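The genes of 10 mast cell G protein-coupled receptors were followed in RNA sequencing data of cultured mouse peritoneal mast cells (PMCs). They were the rows of the deposited gene table named Mrgprb1, Mrgprb2, Adora3, C5ar1, C3ar1, Ptger3, Ptger4, S1pr1, S1pr2 and Hrh4, that is 10 of 55359 genes, and each had exactly 1 row, in which numbers altered by a spreadsheet program were set back. The 8 libraries came from 1 culture each of the lines PMC-303 and PMC-306, and from 6 cultures of primary WT PMCs, 3 of female and 3 of male mice. All are wild-type, of C57BL/6x129/Sv strain and untreated, and the labels give peritoneal mast cells as cell type. The lines arose spontaneously in ageing PMC cultures. They were grown with less serum and stem cell factor than the primary cultures, so that in these libraries transformation and medium cannot be told apart. The study also grew PMC-306 in the medium of primary cultures and reports that its Mrgprb2 mRNA did not change. The study describes a partial loss of a chromosome in PMC-306 and an additional chromosome in some PMC-303 cells. These are not the chromosomes that carry the receptor genes. Each line is a single culture with 1 library.

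G protein-coupled receptors are membrane-spanning proteins that pass the binding of a ligand to heterotrimeric G proteins. In mast cells, receptors coupled to Gi proteins activate phosphoinositide 3-kinase gamma and often increase degranulation or migration, whereas receptors coupled to Gs proteins raise cyclic AMP and mostly restrain mediator release. Peritoneal mast cells are mast cells of the connective tissue type, which are known for Mrgprb2, the mouse receptor for basic peptides and many cationic drugs. The other genes encode receptors for adenosine (Adora3), histamine (Hrh4), prostaglandin E2 (Ptger3 and Ptger4), the complement fragments C3a and C5a (C3ar1 and C5ar1) and sphingosine 1-phosphate (S1pr1 and S1pr2). Mrgprb1 is a close relative of Mrgprb2.

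In the lines, Hrh4 was the only 1 of 9 genes tested that passed with both lines against all 6 primary cultures, and it fell. Of all genes tested 33.8% passed, with 15.5% lower in the lines. Against female or male primary cultures alone Hrh4 did not pass, and without PMC-306 its log2 difference went from -1.23 to -0.60. The lines had 41.5 CPM of Hrh4 (PMC-303) and 17.3 CPM (PMC-306), against 63.9 ± 11.6 CPM (SD, n = 6) in primary WT PMCs. Mrgprb1 and Mrgprb2 were low in PMC-303 and not in PMC-306. Adora3, the most abundant receptor of the group per transcript length, and Ptger3 were below every primary culture in PMC-306 but not in PMC-303. Ptger4 was slightly above every primary culture in both lines, without passing the test.

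CPM is the count of a gene scaled to the size of its library. It does not take transcript length into account, and library sizes were adjusted by TMM (trimmed mean of M values). Libraries held between 15918758 and 24180226 estimated counts, so that 3 counts, taken as the limit that a count of 0 allows, were between 0.123 and 0.187 CPM. This limit and the counting intervals given below cover counting error only. Kit and Fcer1a were abundant in all libraries, with at least 1946 CPM and at least 1323 CPM. Both were nevertheless lower in both lines than in every primary culture and passed (adjusted p = 0.000886 and 0.00309 by limma). Such abundance did not hold for all mast cell markers. Mcpt4 had 1.85 CPM (PMC-303) and 0.0492 CPM (PMC-306), against 227 ± 158 CPM (SD, n = 6) in primary cultures. Tpsb2 had 177 and 20.9 CPM against 6309 ± 3242 CPM, and Hdc 42.4 and 7.61 CPM against 9.53 ± 4.50 CPM. Of 15 mast cell markers 7 were lower in the lines and 0 higher in the test by limma, and they summed to 46555 CPM (PMC-303) and 42736 CPM (PMC-306), below the 56492 to 87503 CPM of primary cultures. Of 12 macrophage markers 5 could be tested and 1 was higher, Icam2. The 12 markers summed to 11.6 CPM (PMC-303) and 453 CPM (PMC-306), with 8.44 to 70.0 CPM among primary cultures. Icam2 had 1.77 and 10.6 CPM against 0.486 ± 0.397 CPM (adjusted p = 0.0193 by limma). Adgre1 made up 426 CPM of the sum in PMC-306 but did not pass (adjusted p = 0.453 by limma). Cd68 had 4.73 and 13.9 CPM, with 1.48 to 17.8 CPM among primary cultures. Lyz2 was below every primary culture in both lines, and Fcgr1 was above them in PMC-303 only. C1qa, C1qb, C1qc, Csf1r, Cd14, Mrc1 and Timd4 had at most 0.255 CPM in any library. The part of these markers in the results for the receptors was not tested, and in such bulk samples fewer cells of a type and less RNA per cell cannot be told apart. Y-linked Ddx3y had 1.44 CPM in PMC-303, which expresses Xist (900.2 CPM), and at most 0.0439 CPM in female primary cultures.

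The positions of the genes in GRCm39, the build used by the authors, were taken from GENCODE release M39. Adora3 lies on chromosome 3 from 105778174 to 105816242, Ptger3 on the same chromosome from 157272492 to 157352099 and S1pr1 from 115504071 to 115508721. C3ar1 lies on chromosome 6 (122823393 to 122833122) and S1pr2 on chromosome 9 (20873657 to 20914139), and Ptger4 lies on chromosome 15 (5236142 to 5273673). On chromosome 7, C5ar1 occupies 15980668 to 15993465, Mrgprb1 48093861 to 48106093 and Mrgprb2 48200713 to 48207885. Exons of Ptger4, S1pr1 and S1pr2 overlap genes on the opposite strand, and the libraries were stranded. The Mas-related gene Mrgprx2 lies between Mrgprb1 and Mrgprb2, which are 94619 bases apart.

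Because Mrgprb1 and Mrgprb2 were low in PMC-303 only, and because such relatives can share reads, their sequences were compared. The coding sequences of Mrgprb1 (1050 bases) and Mrgprb2 (1014 bases) were identical at 73.0% of 1009 aligned bases, and their longest run of identical bases was 25. Mrgprx2 was closer to Mrgprb1, with 85.1% of 1050 aligned bases and a longest run of 39. The most similar stretch of 60 coding bases without a gap is shown from the GRCm39 reference, at coding bases 907 to 966 of Mrgprb1 and 895 to 954 of Mrgprb2, with capitals at the 4 bases that differ:
Mrgprb1: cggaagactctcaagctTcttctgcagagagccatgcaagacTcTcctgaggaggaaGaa
Mrgprb2: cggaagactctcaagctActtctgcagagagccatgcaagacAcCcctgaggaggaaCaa
Reads from such stretches may be assigned to either gene, and both genes are uncertain to that extent. The estimated counts of both genes were whole numbers in every library, and a sharing of reads was not tested.

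The 250 bases before the start of the reference transcript were read from GRCm39 for the same genes and for Adora3. Letters of GATA motifs and E-box motifs on either strand are in capitals. The GATA letters searched were AGATAA and AGATAG, and also TGATAA and TGATAG, and the E-box letters were CACGTG and CATGTG. They were chosen since GATA2 and MITF, which bind such motifs, are mast cell regulators. No motif match overlapped another in these windows. The windows are chr7:48106094-48106343 and chr7:48207886-48208135, both on the minus strand, and chr3:105811487-105811736 on the plus strand:
Mrgprb1: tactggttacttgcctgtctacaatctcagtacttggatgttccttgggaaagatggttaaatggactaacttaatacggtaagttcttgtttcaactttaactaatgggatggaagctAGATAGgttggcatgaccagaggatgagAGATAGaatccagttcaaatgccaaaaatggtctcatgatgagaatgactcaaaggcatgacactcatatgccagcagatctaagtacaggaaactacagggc
Mrgprb2: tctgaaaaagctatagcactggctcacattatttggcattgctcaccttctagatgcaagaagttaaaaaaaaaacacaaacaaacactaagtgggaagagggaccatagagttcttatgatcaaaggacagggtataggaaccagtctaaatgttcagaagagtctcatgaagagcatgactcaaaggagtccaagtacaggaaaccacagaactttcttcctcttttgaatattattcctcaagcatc
Adora3: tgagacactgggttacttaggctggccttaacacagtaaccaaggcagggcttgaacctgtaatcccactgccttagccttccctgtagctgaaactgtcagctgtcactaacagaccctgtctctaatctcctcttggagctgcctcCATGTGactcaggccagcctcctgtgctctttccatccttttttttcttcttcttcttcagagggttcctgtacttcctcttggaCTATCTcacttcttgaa
Mrgprb1 held 2 GATA matches and Mrgprb2 held 0, while Adora3 held 1 GATA and 1 E-box match. The longest run shared by the windows of Mrgprb1 and Mrgprb2 was aagtacaggaaac, of 13 bases, which begins 21 bases before the start of Mrgprb1 and 56 bases before that of Mrgprb2. Of the remaining receptor genes, Hrh4 and C3ar1 held 2 GATA matches each, and Ptger3, Ptger4, S1pr1, S1pr2 and C5ar1 held 0 matches of either kind. Among 21770 such windows of protein-coding genes, 26.2% held a GATA match and 16.2% an E-box match. A match of letters is no evidence of binding, and its absence from the window says nothing about the factors.

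Levels of different genes were compared on the TPM scale as deposited, which takes transcript length into account. In the 6 primary cultures Adora3 ranked first with 170.1 ± 24.7 TPM (SD, n = 6), with 129 TPM in the lowest and 198 TPM in the highest culture, and no other receptor gene reached this range. Ptger3 (73.3 ± 11.3 TPM) and Hrh4 (60.1 ± 15.05 TPM) followed. Their ranges overlapped, although Ptger3 exceeded Hrh4 in 5 of 6 cultures. C3ar1 (15.6 ± 7.73 TPM), Ptger4 (9.12 ± 1.03 TPM) and S1pr2 (8.80 ± 2.19 TPM) formed an intermediate group in which neighbouring ranges overlapped, as did those of S1pr2 and Mrgprb2 (4.07 ± 2.35 TPM), although S1pr2 exceeded Mrgprb2 in 6 of 6 cultures. Mrgprb1 (0.718 ± 0.675 TPM), C5ar1 (0.340 ± 0.470 TPM) and S1pr1 (0.0755 ± 0.0488 TPM) were last and overlapped as neighbours. Adora3, Ptger3 and Hrh4 together made up between 83.2% and 91.0% of the summed TPM of the 10 genes in primary cultures, 88.5% in PMC-303 and 81.0% in PMC-306. In the lines the first 3 ranks were the same, and Ptger4 ranked above C3ar1 in PMC-306.

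**Figure D1:**
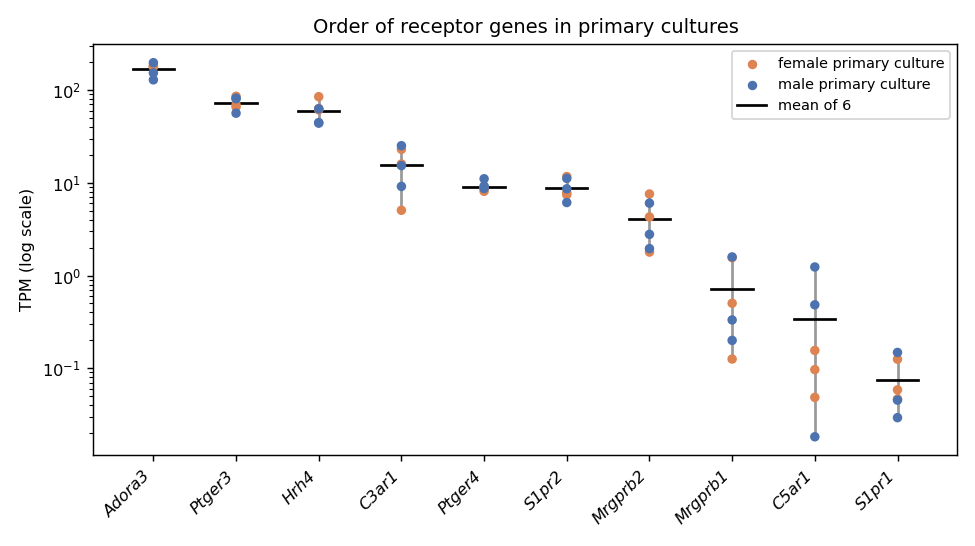
TPM of the 10 receptor genes in the 6 primary WT PMC cultures on a log scale, with points for cultures, grey lines from the lowest to the highest culture and black bars for means. Adora3 stands above the others, S1pr1 has the lowest mean and lies within the range of C5ar1. C5ar1 and Mrgprb1 spread over more than a 10-fold range.

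The spread between primary cultures differed between the genes as well. On the CPM scale S1pr2 varied least, from 41.5 to 46.4 CPM, with a coefficient of variation (CV, SD as a share of the mean) of 4.15%. Adora3 (CV 9.17%), Ptger3 (10.2%), Ptger4 (13.2%) and Hrh4 (18.1%) followed. C3ar1 (46.8%), Mrgprb2 (52.4%) and Mrgprb1 (87.8%) differed more between cultures, and in different ones. On the TPM scale S1pr2 (8.80 ± 2.19 TPM) varied more than Ptger4 (9.12 ± 1.03 TPM), so that its low spread depended on the unit. Mrgprb2 was highest in female 3, in which C3ar1 and Mrgprb1 were lowest.

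**Figure D2:**
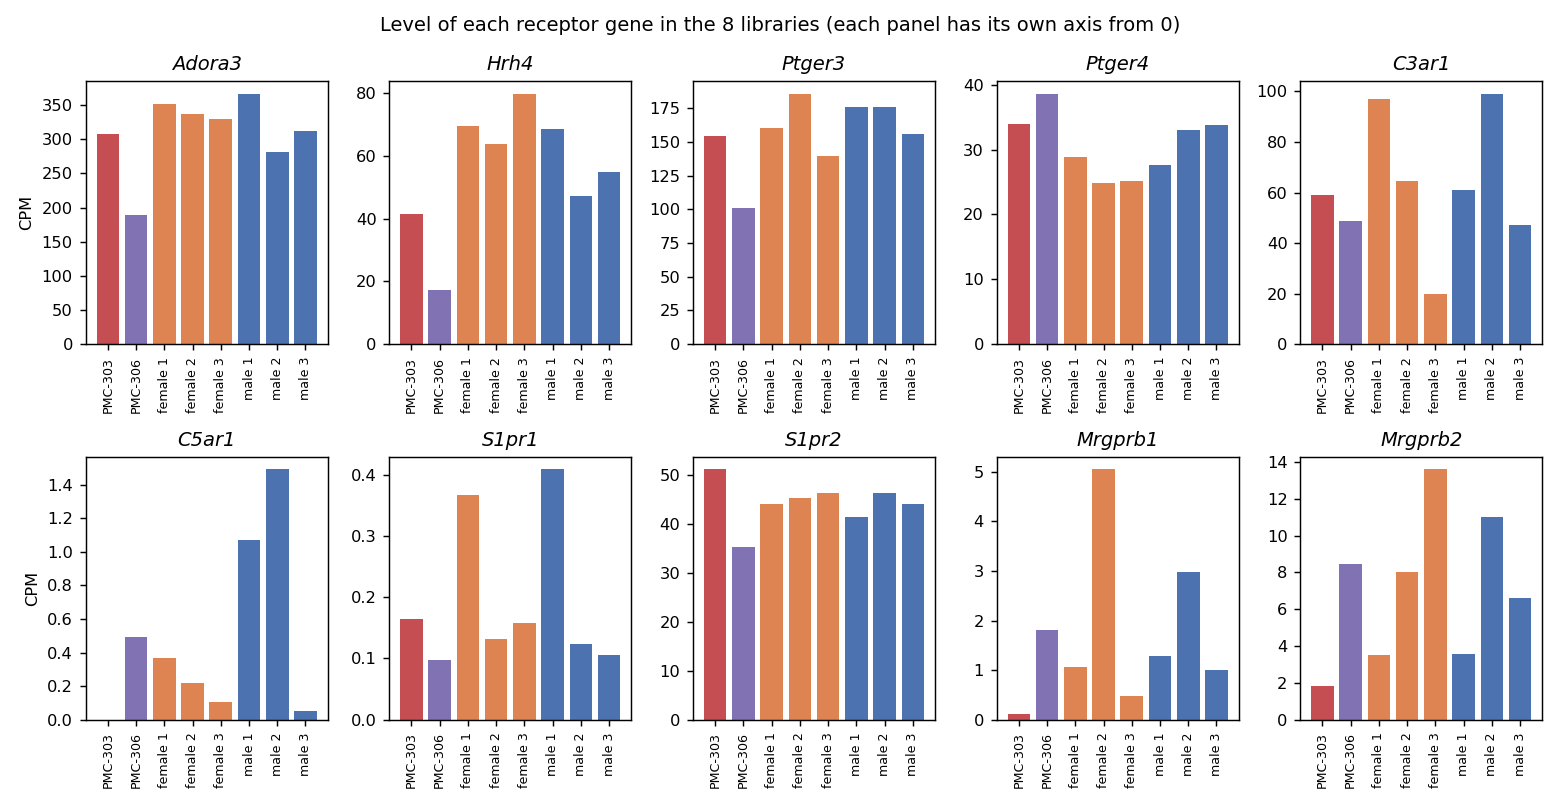
CPM of each receptor gene in the 8 libraries, with 1 bar per library and an axis from 0 in each panel, whose scales differ. Hrh4 is lower in both lines than in any primary culture, whereas C3ar1, Mrgprb1 and Mrgprb2 also range widely among primary cultures.

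To ask which receptor genes differ between the lines and primary WT PMCs, both lines were tested together with limma on log2(CPM + 0.1), with Benjamini-Hochberg adjustment over 14525 genes. Of these genes 18.3% were higher and 15.5% lower in the lines at an adjusted p under 0.05. Of the 10 receptor genes 9 had enough counts for the test, and S1pr1 had not. Of the 9, 0 were called higher and 1 lower, while 1 and 3 had an unadjusted p under 0.05 in these directions. Of all genes 6407 of 14525 had such a p, a share close to the 4 of 9 receptor genes. With voom weights 1 receptor gene was called as well. The median log2 difference of the 9 genes was -0.45 and that of all genes tested -0.01. Without overlap with any primary culture, Ptger4 was higher and Hrh4 lower in both lines. Among all genes tested, 22.9% lay above and 20.1% below the primary cultures in this way.

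A second comparison took each line by itself, without a test, since there is 1 library per line. A gene was called when the line lay outside the range of the 6 primary cultures and at least 2-fold from their mean on the CPM + 0.1 scale. In PMC-303 10.4% of 13024 genes were called higher and 8.09% lower, and of 8 receptor genes that reached 1 CPM in PMC-303 or on average in primary cultures, 0 were called higher and Mrgprb1 and Mrgprb2 lower. In PMC-306 10.2% of 13064 genes were called higher and 9.19% lower, and of the same 8 receptor genes 0 were called higher and Hrh4 lower.

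**Figure D3:**
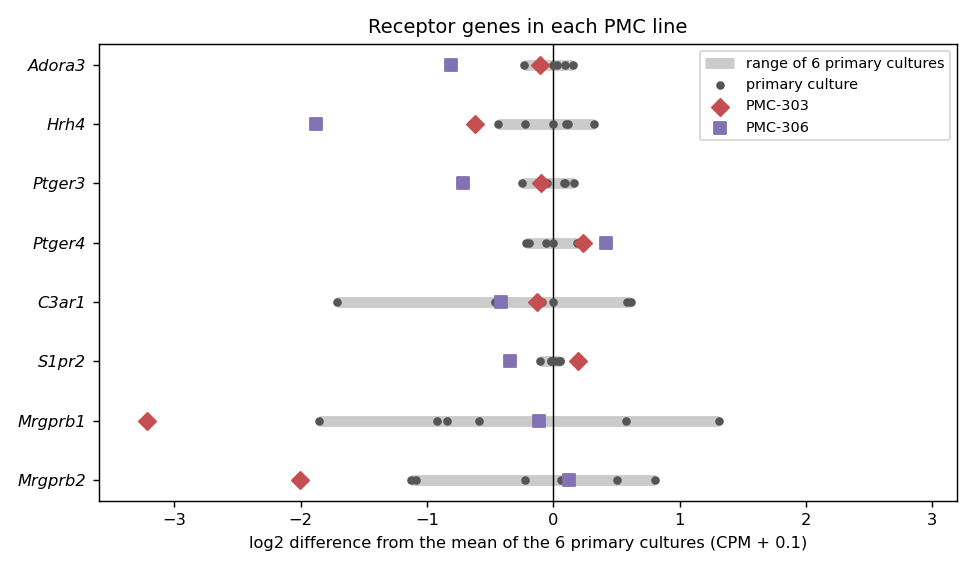
Log2 difference of each line from the mean of the 6 primary cultures on the CPM + 0.1 scale for the 8 receptor genes with a primary mean of at least 1 CPM. Grey bars span the primary cultures (points), and red diamonds and violet squares mark PMC-303 and PMC-306. Hrh4 lies left of the primary range in both lines, Mrgprb1 and Mrgprb2 in PMC-303 only, and Adora3 and Ptger3 in PMC-306 only.

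Hrh4 encodes the histamine H4 receptor, a Gi-coupled receptor known for mast cell chemotaxis towards histamine, and lies on chromosome 18. Its level was 69.5, 63.6 and 79.8 CPM in female 1 to 3 and 68.5, 47.2 and 54.8 CPM in male 1 to 3, while the lines had the 41.5 and 17.3 CPM given above. The groups did not overlap, but PMC-303 was close to the lowest primary culture, male 2. The log2 difference of both lines was -1.23 ± 0.31 (SE), with an adjusted p of 0.0150 by limma. It was -0.62 for PMC-303 and -1.88 for PMC-306 alone, so that PMC-306 was 3.67-fold lower than the primary mean. Without PMC-306 the difference was -0.60 and the call was lost (adjusted p = 0.111 by limma), and without PMC-303 it was -1.86 (adjusted p = 0.00170). In both cases the lone line library is assumed to vary like the primary cultures. Against the 3 female or the 3 male primary cultures alone the adjusted p was 0.0627 and 0.115. The main transcript of 2866 bases carried 77.2% of the Hrh4 counts in PMC-303, 84.3% in PMC-306 and between 80.8% and 88.1% in primary cultures. Of the other histamine receptor genes 1 of 3 could be tested, Hrh2, which encodes the Gs-coupled H2 receptor. Its levels were 45.1 CPM (PMC-303), 27.8 CPM (PMC-306) and, among primary cultures, 42.8 ± 7.34 CPM (SD, n = 6; log2 difference -0.25, adjusted p = 0.412 by limma).

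Adora3 encodes the Gi-coupled adenosine A3 receptor, through which adenosine enhances degranulation of mouse mast cells. It had between 281 and 367 CPM in primary cultures (median 333 CPM) and in the lines 308 CPM (PMC-303) and 189 CPM (PMC-306). PMC-303 lay within the primary range and PMC-306 below it, 1.75-fold under the primary mean. Both lines together differed by -0.45 ± 0.17 (log2, SE), which did not pass (adjusted p = 0.0769 by limma). Without PMC-303, PMC-306 alone against the primary cultures gave -0.80 (adjusted p = 0.00485), in which the single library is assumed to vary like the others. Without PMC-306 the difference was -0.10 (adjusted p = 0.647 by limma). Exons of Tmigd3 and Gm53046 overlap those of Adora3 on the same strand, so that reads could be split between these genes. Tmigd3 had less than 4 CPM in each library, with 2.14 CPM (PMC-303) and 1.94 CPM (PMC-306) in the lines. Within Adora3, the transcript of 2370 bases carried 82.0% of counts in PMC-303, 79.6% in PMC-306 and 82.4% ± 0.761 (SD, n = 6) in primary cultures. Neither of the other adenosine receptor genes tested passed. Adora2b had 30.3 CPM in both lines, against 31.3 to 70.4 CPM in primary cultures (adjusted p = 0.0701 by limma), and Adora2a had 12.1, 16.4 and 8.96 to 13.4 CPM (adjusted p = 0.169 by limma).

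Prostaglandin E2 acts on mast cells through EP3, a Gi-coupled receptor encoded by Ptger3, and EP4, a Gs-coupled receptor encoded by Ptger4. Ptger3 had 155 CPM (PMC-303) and 101 CPM (PMC-306) in the lines and between 140 and 186 CPM in primary cultures (median 168 CPM). PMC-303 was within and PMC-306 below the primary range, and the log2 difference of both lines was -0.40 ± 0.16 (SE, adjusted p = 0.0912 by limma). Without PMC-303 it was -0.71 (adjusted p = 0.0104 by limma), where the spread of the single line library is again taken from the primary cultures, and without PMC-306 it was -0.09 (adjusted p = 0.684). Ptger4 had 33.9 CPM (PMC-303) and 38.6 CPM (PMC-306) in the lines. Among primary cultures it had 28.8, 24.8 and 25.2 CPM in female 1 to 3 and 27.6, 33.0 and 33.7 CPM in male 1 to 3. Both lines were thus above every primary culture, PMC-303 by less than 1 CPM, and the log2 difference was 0.34 ± 0.14 (SE, adjusted p = 0.0939 by limma). With library sizes from total counts it was 0.45 and passed (adjusted p = 0.0419), a scaling that moved the median log2 difference of all genes by 0.11 and the share of higher among called genes from 54.1% to 67.2%. Within a library, the ratio of Ptger4 to Ptger3 on the TPM scale was 0.273 in PMC-306, 0.154 in PMC-303 and between 0.0945 and 0.154 in primary cultures, so that PMC-306 had the highest ratio.

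The Ptger3 transcript of 3848 bases carried 70.7% of counts in PMC-303, 68.6% in PMC-306 and 63.2% to 69.5% in primary cultures. A Ptger3 transcript annotated as a retained intron carried 19.9%, 23.0% and 23.1% to 29.6%, and was thus below all primary cultures in both lines, in PMC-306 by a narrow margin. Counts of Ptger4 were divided between transcripts of 3312 and 3269 bases. The shorter one had 63.1% of counts in PMC-306, 47.7% in PMC-303 and 43.1% to 58.9% in primary cultures. PMC-306 was above every primary culture, and among these all female cultures (49.8% to 58.9%) were above all male cultures (43.1% to 43.9%). This division is an estimate by Salmon, and the sexes were not tested for it. Of 7 other prostanoid receptor genes 2 could be tested and 0 passed with limma, and 1 was higher with total counts. Ptgir, which encodes the Gs-coupled prostacyclin receptor, had 38.9 CPM (PMC-303) and 55.8 CPM (PMC-306) in the lines, above all primary cultures (12.8 to 33.5 CPM, adjusted p = 0.0679 by limma).

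The complement receptor genes spread widely among primary cultures. C3ar1, the Gi-coupled receptor for C3a, had 96.9, 64.7 and 19.7 CPM in female 1 to 3 and 60.8, 99.2 and 47.0 CPM in male 1 to 3. PMC-303 (59.0 CPM) and PMC-306 (48.6 CPM) lay within this 5.04-fold range, and the log2 difference was -0.09 ± 0.54 (SE, adjusted p = 0.910 by limma), whose sign changed to 0.01 with total counts and to 0.05 with TPM. C5ar1, the receptor for C5a, was near the limit of detection. It had 8, 5 and 2 counts in female 1 to 3, 21, 24 and 1 counts in male 1 to 3, 10 counts in PMC-306 and 0 counts in PMC-303, with an exact 95% Poisson upper limit of 0.152 CPM. The highest levels were 1.07 CPM in male 1 and 1.49 CPM in male 2. The log2 difference of both lines was -0.90 ± 1.03 (SE, adjusted p = 0.535 by limma), with a wide spread among primary cultures.

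C5ar2, which encodes a C5a receptor that does not couple to G proteins, lies 2546 bases from C5ar1 on the same strand. It had 10.4 CPM in female 1, 13.1 CPM in male 1 and 17.9 CPM in male 2, and at most 0.264 CPM in female 2, female 3 and male 3. The lines had 1 count (PMC-303) and 0 counts (PMC-306). The 3 cultures with C5ar2 also had the 3 highest levels of C5ar1 among primary cultures, but C5ar1 in female 1 (0.367 CPM) was close to that in female 2 (0.220 CPM). PMC-306, in contrast, had 10 counts of C5ar1 and 0 of C5ar2. Against the primary cultures as a whole C5ar2 had a log2 difference of -4.03 ± 1.96 (SE) and did not pass (adjusted p = 0.148 by limma).

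**Figure D4:**
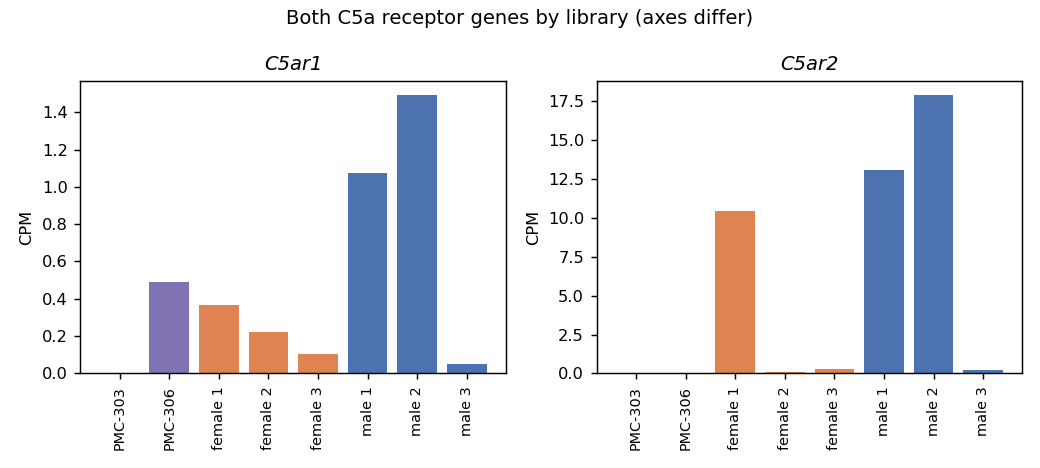
CPM of C5ar1 and C5ar2 in the 8 libraries, with 1 bar per library and different axes from 0. C5ar2 stands at 10.4 to 17.9 CPM in female 1, male 1 and male 2 and near 0 elsewhere, and C5ar1 is highest in male 1 and male 2.

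Sphingosine 1-phosphate receptors were represented by S1pr2, which is known to promote degranulation, and hardly by S1pr1, which is known for migration. S1pr2 had 51.2 CPM (PMC-303) and 35.2 CPM (PMC-306) in the lines and between 41.5 and 46.4 CPM in primary cultures (median 44.6 CPM). PMC-303 was thus above and PMC-306 below the primary range, by log2 differences of 0.20 and -0.34. Both lines together gave -0.07 ± 0.13 (SE, adjusted p = 0.704 by limma). On the TPM scale PMC-303 (9.56 TPM) and PMC-306 (9.27 TPM) were both within the primary range of 6.13 to 11.7 TPM. The position of each line outside the primary range thus depended on the unit. Counts were assigned to an S1pr2 transcript of only 419 bases in PMC-306, female 3, male 1 and male 2 (between 6.64 and 14.9 counts) and not in the other libraries. In primary cultures the S1pr2 level in TPM was 8.62 to 11.7 in these 3 and 6.13 to 7.79 in the others. S1pr1 had between 2 and 8 counts in every library, at most 0.409 CPM, and was too low to compare.

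Of 9 other receptor genes for sphingosine 1-phosphate and lysophosphatidate, 5 could be tested, of which 1 was higher and 1 lower. Lpar1 was higher in the lines, with 92.5 CPM (PMC-303) and 86.3 CPM (PMC-306) against 60.9 ± 6.30 CPM (SD, n = 6; log2 difference 0.56, adjusted p = 0.00455 by limma). Lpar6, the most abundant of them in CPM, fell to 184 and 165 CPM from 315 ± 45.97 CPM (log2 difference -0.84, adjusted p = 0.00299 by limma). S1pr4 had 0.617 CPM (PMC-303) and 13.1 CPM (PMC-306), outside the primary range of 4.30 to 11.9 CPM on opposite sides (adjusted p = 0.354 by limma).

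Mrgprb2 had 3.49, 8.04 and 13.6 CPM in female 1 to 3 and 3.58, 11.0 and 6.61 CPM in male 1 to 3. It had 1.85 CPM (45 counts) in PMC-303, below every primary culture, and 8.45 CPM (172 counts) in PMC-306, in the upper part of the primary range. The exact 95% Poisson intervals of these counts were 1.35 to 2.48 CPM and 7.23 to 9.81 CPM. By quantitative PCR, in contrast, the study reports significantly lower Mrgprb2 mRNA in PMC-306 than in primary WT PMCs. The reason for this difference was not tested. The study also reports that both lines degranulated when stimulated with a ligand of the receptor encoded by Mrgprb2, which is not a measure of mRNA. PMC-303 was 4.01-fold lower than the primary mean of 7.72 ± 4.05 CPM (SD, n = 6), and the log2 difference of both lines was -0.76 ± 0.67 (SE, adjusted p = 0.414 by limma). Mrgprb1 had 1.06, 5.05 and 0.475 CPM in female 1 to 3, 1.28, 2.98 and 0.997 CPM in male 1 to 3, and 1.82 CPM (37 counts) in PMC-306. PMC-303 held only 3 counts, or 6.26% of the primary mean, with a counting interval from 1.29% to 18.3%. Both lines together gave -1.28 ± 0.96 for Mrgprb1 (log2, SE, adjusted p = 0.341 by limma). Without PMC-303 the signs changed to 0.30 for Mrgprb2 and 0.27 for Mrgprb1, and neither passed.

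The ratio of Mrgprb2 to Mrgprb1 on the TPM scale was between 2.75 and 13.9 in 5 of the primary cultures and 60.3 in female 3, where Mrgprb1 had only 9 counts. In female 2, which had the most Mrgprb1, Mrgprx2 was also highest with 7.82 CPM, against 0.255 to 1.42 CPM among the remaining ones. PMC-306 had 2.50 CPM of it and PMC-303 1 count. These genes are similar in sequence, as shown above, and a sharing of reads between them was not tested. Of 19 other Mas-related receptor genes 4 could be tested. Mrgpra4, the most abundant, fell from 41.8 ± 10.9 CPM (SD, n = 6) to 21.7 CPM (PMC-303) and 12.03 CPM (PMC-306) in the lines (log2 difference -1.33, adjusted p = 0.00860 by limma), and Mrgpra9 rose from 0.510 ± 0.422 CPM to 6.38 and 2.75 CPM (log2 difference 3.24, adjusted p = 0.0249 by limma).

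For female against male primary cultures, 6 of 13754 genes tested (0.0436%) passed with limma. Of 8 receptor genes tested 0 passed and 0 had an unadjusted p under 0.05, although Hrh4 had an unadjusted p of 0.0448 by limma with the replicate block and 0.0396 with TPM. Its unadjusted p by limma was also 0.0476 over all genes with a count and 0.0119 without male 1. When another culture was left out, it was between 0.0547 and 0.206. Their log2 differences, female minus male, ranged from -0.40 for C3ar1 to 0.33 for Hrh4. Hrh4 had 71.0 ± 8.20 CPM in females and 56.8 ± 10.8 CPM in males (SD, n = 3 each), and the cultures of both sexes overlapped. For Ptger4 the values were 26.3 ± 2.21 and 31.4 ± 3.31 CPM, and female 1 was above male 1. With 3 cultures per sex, such differences cannot be told apart from the spread between cultures.

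For each receptor gene with a mean of at least 1 CPM, the genes with the most similar pattern over the 8 libraries were sought among 12590 genes by Pearson correlation of log2(CPM + 0.1). The points share the contrast of lines and primary cultures, and the best of so many genes is high by selection, so that no p is given. Adora3 was most like Pex7 (r = 0.99) and Ss18l2 (0.99), Hrh4 was most like Hmgxb3 (0.99) and Pdlim5 (0.99), and Ptger3 was most like 4833439L19Rik (0.99) and Lxn (0.98). For the other genes the leading pairs were Ttl (0.96) and Ssna1 (0.95) for Ptger4, Gm42067 (0.95) and Tor1aip2 (0.95) for S1pr2, Epha5 (0.92) and Ndufa3 (0.91) for C3ar1, Fam228b (0.97) and Gnpda2 (0.97) for Mrgprb1, and Ythdf3 (0.93) and Zbtb44 (0.92) for Mrgprb2. Pdlim5 had 154 CPM (PMC-303) and 101 CPM (PMC-306) in the lines and between 179 and 223 CPM in primary cultures, the same order of groups as Hrh4. No receptor gene of the 10 was among these.

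Genes that act with these receptors were taken from 16 lists of related receptors, transducers and ligand enzymes. Of their 188 genes 108 were tested, and 16 were higher and 25 lower in the lines, which is 38.0% against 33.8% of all genes tested. Both shares include genes tested only because of the lines, such as P2ry10, Cysltr1 and Gpr35 below, which could only be called higher. The lists of other adenosine, anaphylatoxin, histamine and prostanoid receptors held 0 called genes. Of 8 leukotriene and purine receptor genes tested 3 rose and 3 fell. P2ry14, the most abundant, rose from 155 ± 20.8 CPM (SD, n = 6) to 236 CPM (PMC-303) and 214 CPM (PMC-306), with an adjusted p of 0.0160 by limma. Ltb4r2 fell from 24.2 ± 10.8 CPM to 7.70 and 2.11 CPM (adjusted p = 0.0140 by limma). P2ry10 rose from at most 0.155 CPM to 0.687 CPM (PMC-303) and 21.9 CPM (PMC-306). It had enough counts for the test only because of the lines, so that it could only be called higher, and its p is left out. The same held for Cysltr1, with 0.823 and 0.835 CPM against at most 0.158 CPM. Of 11 chemokine and peptide receptor genes 3 rose and 3 fell. Gpr35 rose from at most 0.551 CPM to 0.988 and 10.4 CPM. Among primary cultures only female 1 reached about 10 counts, so that Gpr35 was tested because of the lines and its p is left out. Others were Cx3cr1, the fractalkine receptor gene, with 447 and 123 CPM against 45.01 ± 25.4 CPM (adjusted p = 0.0164 by limma), and Ptafr, the receptor gene for platelet-activating factor, with 0.947 and 10.3 CPM against 24.5 ± 6.77 CPM (adjusted p = 0.0149 by limma). The thrombin receptor gene F2r fell to 327 and 907 CPM from 1309 ± 364 CPM (adjusted p = 0.0370 by limma), although PMC-306 was within the primary range.

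**Figure D5:**
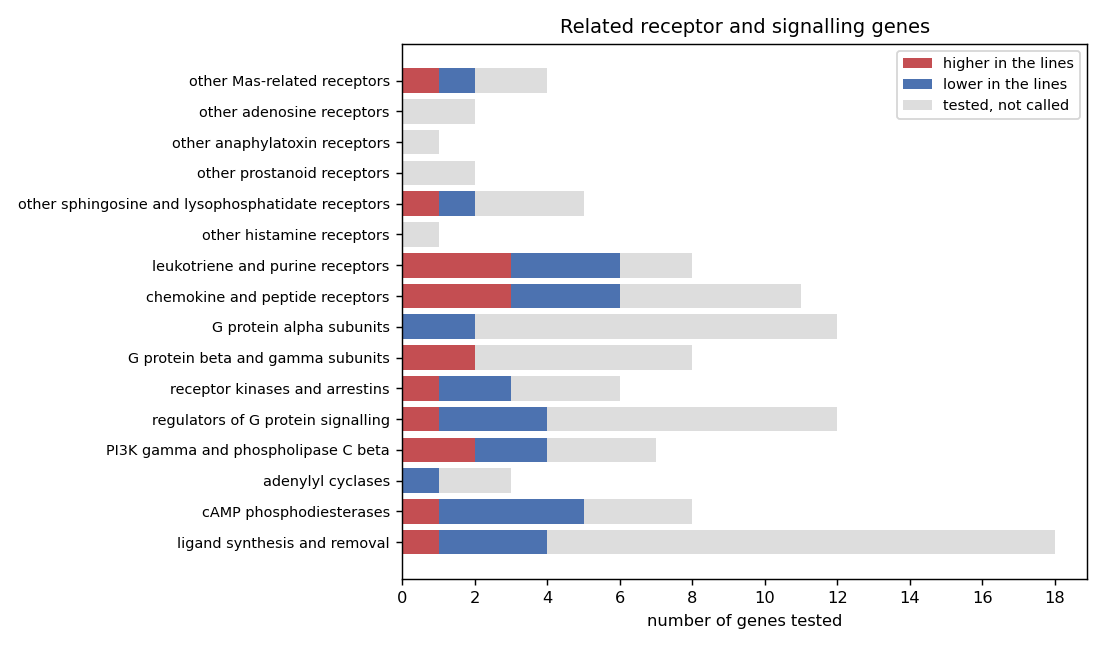
Number of genes tested in each of the 16 lists, with the genes higher (red) and lower (blue) in both lines by limma and the tested genes that were not called (grey). Receptors for leukotrienes and purines hold 6 called genes of 8, and G protein alpha subunits 2 of 12. The 6 include P2ry10 and Cysltr1, which were tested only because of the lines and could only be called higher. Among all genes tested 33.8% were called.

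Transducer genes went in both directions. Among all genes tested 33.8% were called. The share was 16.7% for alpha subunits and 25% for beta and gamma subunits. It was 57.1% for phosphoinositide 3-kinase gamma and phospholipase C beta. Of 12 alpha subunit genes 0 rose and 2 fell, Gna14 (log2 difference -0.49, adjusted p = 0.0114 by limma) and Gna12 (-0.25, adjusted p = 0.0465 by limma). With total counts 1 rose and 1 fell. Gnai2, the most abundant Gi subunit gene in CPM, had 489 CPM (PMC-303) and 415 CPM (PMC-306), close to its primary level of 440 ± 27.9 CPM (SD, n = 6). Of 8 beta and gamma subunit genes Gnb2 and Gng2 rose, by 0.43 and 0.44 on the log2 scale. The catalytic subunit gene of phosphoinositide 3-kinase gamma, Pik3cg, had 236, 234 and 214 ± 16.0 CPM and did not pass, whereas its adaptor gene Pik3r6 rose by 1.26 (adjusted p = 0.0198 by limma). Among phospholipase C beta genes Plcb1 rose by 0.92, and Plcb2 and Plcb4 fell. Plcb4 was left with 3 counts (PMC-303) and 1 count (PMC-306), against 16.8 to 54.3 CPM in primary cultures.

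Genes that end receptor signals also went in both directions. The share called was 50% for receptor kinases and arrestins, 33.3% for regulators of G protein signalling and 33.3% for adenylyl cyclases. For phosphodiesterases it was 62.5% and for synthesis or removal of ligands 22.2%, against 33.8% of all genes tested. Of 6 genes for receptor kinases and arrestins tested, Grk6 rose by 0.44, and Grk5 (-1.40) and Arrb2 (-0.44) fell on the log2 scale. Of 12 regulators of G protein signalling, Rgs13 rose from 138 ± 55.1 CPM (SD, n = 6) to 478 and 357 CPM (adjusted p = 0.00911 by limma), and Rgs9, Rgs12 and Rgs16 fell. Rgs12 had 208 and 115 CPM against 389 ± 34.4 CPM (adjusted p = 0.00129 by limma). In the cyclic AMP pathway, 1 of 3 adenylyl cyclase genes tested fell, Adcy6, whereas Adcy7, by far the most abundant in CPM, had 358 and 426 CPM against 337 ± 51.7 CPM. Of 8 phosphodiesterase genes Pde3b rose and Pde1c, Pde4d, Pde7b and Pde8a fell. Of 18 genes for synthesis or removal of ligands, Ptges3 rose by 0.88, and Sphk2, Sgpl1 and Hpgds fell by 0.55, 0.90 and 0.64 on the log2 scale. Sphk2 makes and Sgpl1 degrades sphingosine 1-phosphate, and Hpgds makes prostaglandin D2.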

How the data were processed

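RNA of 8 PMC cultures was analysed, of which 2 were lines and 6 were primary cultures. According to the methods, the authors prepared stranded total RNA libraries, trimmed reads with Trim Galore 0.6.7, mapped them on GRCm39 with STAR 2.7.9a and estimated abundance by Salmon 1.5.2. Values deposited by the authors are estimated counts, not normalized, for genes and transcripts, and TPM per gene, which are scaled for transcript length and depth. The transcript TPM were not used. A spreadsheet program with German settings had altered the deposited tables and rewritten 3.37% of gene count, 3.22% of transcript count and 21.8% of TPM cells as dates or with additional points. They were set back to numbers, after which 99.7% of gene counts equalled their summed transcripts to within 0.2 counts. In 381 gene count cells a date allowed a second reading, and no receptor gene was among them. The decimal point of TPM cells was placed to fit the counts. As the deposited tables were no longer plain count tables, restored counts were tested on a log scale.

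Samples were grouped by their labels. TMM library sizes were computed over all 8 libraries. The 2 lines were compared with all 6 primary cultures, and females with males (3 cultures each). Both comparisons used limma 3.58.1 in R 4.3.3 on log2(CPM + 0.1), with variance shrunk towards its trend over expression and two-sided p-values. Genes were tested if about 10 counts were reached in at least 2 libraries of any group (3 for the sexes) and 15 counts summed. The offset of 0.1 understates changes of low genes. The labels number the primary cultures as biological replicates but do not say that each came from a separate mouse, so that p-values measure only the spread between these cultures. No pair of primary libraries agreed within sampling noise (ratio of chi-square to its degrees of freedom at least 19.0). The procedure was tested on simulated libraries. The genes named are the 10 receptors, genes of the lists (for lists over 10 genes, from the called genes of largest fold and the abundant ones), genes with overlapping exons and the 2 most similar genes of each receptor. Members and lists were chosen with earlier results of these data known. Sequences and positions come from GRCm39 and GENCODE M39, which represent C57BL/6J. Outside R, scipy 1.17.1, pandas 2.3.3 and numpy 2.4.6 were run in Python 3.11.15. Alternatives were other scalings, offsets, filters, units, weights and choices of cultures, and omission of single libraries.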

Additional observations from a re-analysis of the deposited data

Results flagged for a closer look

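On the CPM scale S1pr2 was above all 6 primary cultures in PMC-303 (log2 difference 0.20) and below all of them in PMC-306 (-0.34). The contrast between the lines, with 1 library each, was not tested. With TPM the values were 0.12 (PMC-303) and 0.07 (PMC-306), and both lines lay within the primary range. Among the primary cultures, no culture stood apart from the others by Dixon's criterion for any of the 9 receptor genes with at least 1 CPM in a primary culture.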

How the results depend on the processing

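In the comparison of both lines with primary WT PMCs, 1 receptor gene (Hrh4) passed. With total counts 2 passed, and against female or male primary cultures alone 0 passed. Leaving out 1 library gave between 0 (without PMC-306) and 4 (without PMC-303). The number called in PMC-303 fell from 2 to 1 with TPM, where Mrgprb1 had less than 1 TPM on average and was not compared, and was 2 whenever a primary culture was left out. In PMC-306 it was 1 under all of these settings. C3ar1 changed sign to 0.046 with TPM, 0.10 against female cultures and 0.015 with total counts, and ranged from -0.40 to 0.064 when a library was left out. S1pr2 changed sign to 0.13 with TPM and 0.040 with total counts, and ranged from -0.34 to 0.20 without 1 library. These ranges were -2.83 to 0.27 for Mrgprb1, -1.83 to 0.30 for Mrgprb2 and -2.18 to 0.38 for C5ar1, and for C3ar1 between sexes -0.88 to 0.27. The cause was not tested. Without PMC-303, S1pr2 passed as lower (-0.34, adjusted p = 0.0291 by limma), where the lone PMC-306 library is assumed to vary like the primary cultures. The order of levels was the same with CPM per kilobase of the longest transcript.

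Of all genes, 2659 were higher and 2254 lower in the lines. These numbers were 1327 and 832 against female cultures, 1786 and 1241 against male cultures, and 2369 and 983 with TPM, where 70.7% of called genes were higher and the median moved by 0.14. The replicate numbers of female and male cultures did not pair them, with correlations of their deviations of 0.38, -0.20 and 0.28, and with the replicate block 0 receptor genes passed, as without it. With the block 1 gene was higher in females and 4 lower, against 2 and 4 without it. Low counts, at most 8 for S1pr1 and 24 for C5ar1 in a library, limit what can be said of these genes.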
